A study of Mus musculus with 235 samples.

Results

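The response of the prefrontal cortex to dexamethasone was compared with that of the hippocampus, gene by gene, in 146 of the 235 libraries of the series. The genes described are the 14 of 10585 tested whose change after dexamethasone differed between PFC and the mean of the hippocampal regions. The libraries taken were all 29 labelled PFC (prefrontal cortex) and all 117 labelled dCA1, dDG, vCA1 or vDG, the dorsal and ventral CA1 and dentate gyrus punches. They came from 30 adult male C57Bl/6 mice, 3 months old and group-housed, of which 15 received an intraperitoneal injection of dexamethasone at 10 mg/kg and 15 received saline vehicle. The treatment lasted 4 hours in both arms, brains were perfused, and each region was punched from coronal sections for 3' end sequencing, so that every library mixes the cell types of its punch. In such bulk samples fewer cells of a type and less RNA per cell cannot be told apart. PFC had 15 vehicle and 14 dexamethasone libraries, dCA1 15 and 13, dDG 15 and 15, vCA1 14 and 15, and vDG 15 and 15. All 5 libraries were present for 27 animals, 14 of them given vehicle and 13 dexamethasone.

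Dexamethasone is a synthetic agonist of the glucocorticoid receptor, a nuclear receptor that moves to the nucleus when bound by hormone and raises or lowers the transcription of its target genes. Cortex and hippocampus both express this receptor, and the hippocampus also holds much mineralocorticoid receptor. FKBP5, the product of a well-known target gene, is a co-chaperone that lowers the receptor's affinity for hormone and so forms a short feedback loop.

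The smallest library held 297943 counts and the largest 1451422 (median 762046.5). RNA integrity was higher in PFC (7.75 ± 0.498, SD, n = 15, and 7.81 ± 0.452, SD, n = 14, in vehicle and dexamethasone libraries) than in the hippocampal groups, whose means lay between 5.95 and 6.69. No difference in integrity or totals between arms passed in the 5 regions (10 permutation tests, smallest p 0.312, adjusted p 0.845 or above). Levels are given as CPM, the counts of a gene scaled to a common library total. In vehicle libraries the cortical genes Cux2 and Lamp5 averaged 133 and 112 CPM in PFC, against 17.5 to 57.0 and 18.6 to 24.0 over the 4 hippocampal labels. These had the largest PFC minus hippocampus differences of the cortical projection list and were chosen after their values were seen. Of its 14 members tested for the vehicle level, 8 were higher and 3 lower in PFC (17.1% of all genes in each direction), among the lower ones Bcl11b at -1.27 and Tle4 at -0.52 log2. Summed CA1 markers (10 of 10 tested) lay at 1038 CPM (median, 930.5 to 1282) in PFC and had medians of 1973 to 3225 in the hippocampal labels, with no overlap. Other lists did not separate PFC from every label. The summed cortical projection markers (15 of 17 tested) lay at 2252 CPM (1844 to 2614) in PFC and 1899 (1541 to 2604) in vCA1, and the summed dentate markers (11 of 11 tested) at 395 CPM (338.5 to 492.3) and 428 (259.6 to 558.4). Nor were the dCA1 libraries separated from the dDG ones. Prox1 averaged 514 CPM in dCA1 and 457 in dDG, C1ql2 190.5 and 152, and the CA1 gene Fibcd1 52.2 and 41.4, so these names stand below for the labels. The ventral labels overlapped in summed dentate markers, with vehicle at 606.4 CPM (355.9 to 1639) in vDG and 428 (259.6 to 558.4) in vCA1. After dexamethasone vDG lay at 725.5 CPM (271.4 to 1434) and vCA1 at 629 (281.4 to 1453). In vCA1 the mean log2 level of these markers was 0.805 higher after dexamethasone (permutation p 0.00334, adjusted over 4 regions 0.0134). Its part in the comparisons with vCA1 was not tested. For none of 12 marker lists did the difference between arms in the PFC minus hippocampus level pass (smallest permutation p 0.117, adjusted p 0.752 or above). In the hippocampal sums, where 5.6% of all genes fell, 4 of 10 oligodendrocyte, 5 of 10 microglia, 5 of 9 endothelial and 4 of 15 cortical projection markers fell. In PFC, where 2.28% fell, 0 of 9, 2 of 9, 3 of 7 and 1 of 14 did. In these 4 lists 1 endothelial marker rose in the hippocampal sums, and 1 endothelial and 1 cortical projection marker rose in PFC. Of the astrocyte markers 3 of 10 rose and 1 fell in the hippocampal sums, where 6.68% of all genes rose, and 1 of 10 rose in PFC, where 3.86% did. Each sum pooled an animal's 4 hippocampal libraries, against 1 library in PFC, so these counts differ in depth and are not compared. No member of these 5 lists passed the test of the difference of response, and 3 of 15 cortical projection markers had an unadjusted p under 0.05 in it (4.19% of all genes). The summed oligodendrocyte level had a median of 2250 CPM (1349 to 8301) with vehicle and 2304 CPM (1282 to 7082) with dexamethasone in PFC, and medians of 3364 to 5961 and 3074 to 4801 CPM in the hippocampal groups. Their mean PFC minus hippocampus level was -0.926 log2 with vehicle and -0.651 with dexamethasone (permutation p 0.358). The part of these cell types in the results was not tested.

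Genes called in both regions nearly always moved the same way. In its own fit PFC changed 565 of 9198 genes (6.14%), 355 higher (3.86%) and 210 lower (2.28%), and the hippocampal libraries summed within each animal changed 1491 of 12143 (12.3%), 811 higher (6.68%) and 680 lower (5.6%). Among the 9188 genes tested in both and in the joint fit, 564 passed in PFC and 1091 in hippocampus, and 423 passed in both. Of these 423, 267 rose in both, 154 fell in both and 2 moved in opposite directions, Dusp14 and Rspo3. Mthfd2, a mitochondrial folate enzyme, is shown as an example of a like response and was chosen after its values were seen. Levels here and below are medians, with the lowest and highest library in parentheses. It lay at 8.34 CPM (1.59 to 14.6) in PFC of vehicle animals and at 59.2 CPM (41.3 to 77.6) after dexamethasone, and its log2 change of 2.83 in PFC stood beside 2.60 to 2.87 in the 4 hippocampal regions. The difference of response for Mthfd2 was 0.11, with a 95% interval of -0.26 to 0.48.

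The response itself differed between PFC and hippocampus for 14 of 10585 genes (0.132%), 9 with the higher (0.085%) and 5 with the lower (0.0472%) change in PFC. The test was edgeR's quasi-likelihood test of the log2 change in PFC minus the mean log2 change of dCA1, dDG, vCA1 and vDG, with the animal as block and an adjusted p under 0.05. Changes, and differences between them, are on the log2 scale throughout. The p-values of this test rest on the spread between libraries left after the animal block, estimated over all 5 regions together. In it the 4 hippocampal libraries of a mouse enter as separate values. With 1 PFC minus hippocampus difference per animal, limma-trend called 26 genes. The difference was positive for Mc4r, Rspo3, Cited2, Fkbp5, Them4, Smpd3, Pde4b, Spon1 and Slco3a1. It was negative for Cdkn1a, Dusp14, Dgat2, Ptgfrn and Nectin3. An unadjusted p under 0.05 was reached by 443 genes. Of the 14, 5 passed in both regions' own fits, 4 in PFC alone and 4 in hippocampus alone, and Mc4r did not pass the count filter of the fit on PFC alone. Without the animals of punching date 3 only 3 genes passed, and 6 did without those of date 1, or without those of date 4, while all 14 kept their direction in every alternative run of the whole contrast. Libraries with the same replicate number in both arms shared plate and nearly always punching date, and with the number as a block within region 25 genes passed, the 14 among them.

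**Figure D1:**
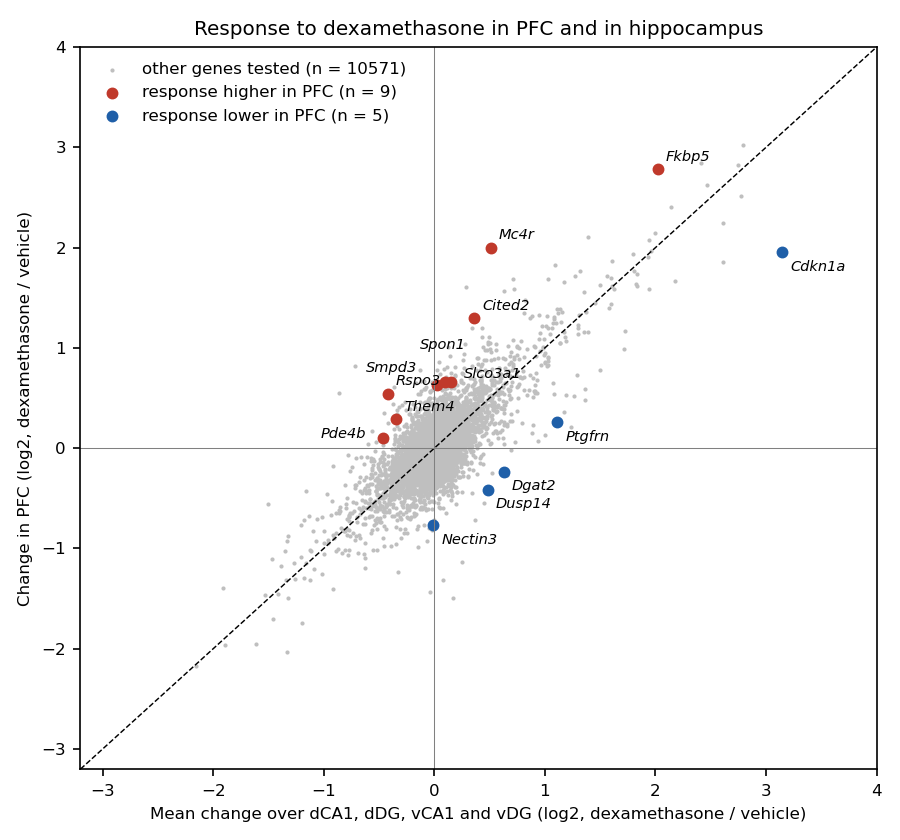
Log2 change of each gene after dexamethasone in PFC (y axis) against the mean log2 change over the 4 hippocampal regions (x axis), from the fit without the animal term. The dashed line marks equal change; the 9 genes with a higher response in PFC lie above it and the 5 with a lower response below it, while the other 10571 genes are in grey.

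Set against each hippocampal region in the same fit, PFC differed from dCA1 in 14 genes (0.132%; 9 higher, 0.085%, and 5 lower, 0.0472%), from dDG in 8 (0.0756%, 4 and 4), from vCA1 in 4 (0.0378%, all lower) and from vDG in 1 (0.00945%). That gene was Cdkn1a, which passed against all 4 regions, though not in every alternative against dDG and vDG. Counts of 0 genes with a higher response than in vCA1 and vDG came from edgeR, where 411 and 418 genes had an unadjusted p under 0.05 in either direction, and DESeq2 called 1 such gene against each. Against vCA1, 2 were called with no count filter, and 1 with limma-trend or in the libraries of the authors' tables. Against vDG, 1 was called with the replicate block, with plate and date terms, or in the authors' libraries. The remaining alternatives called none. With the replicate block the counts were 23 against dCA1, 23 against dDG, 4 against vCA1 and 2 against vDG. Whether the counts themselves differ between hippocampal regions was not tested.

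**Figure D2:**
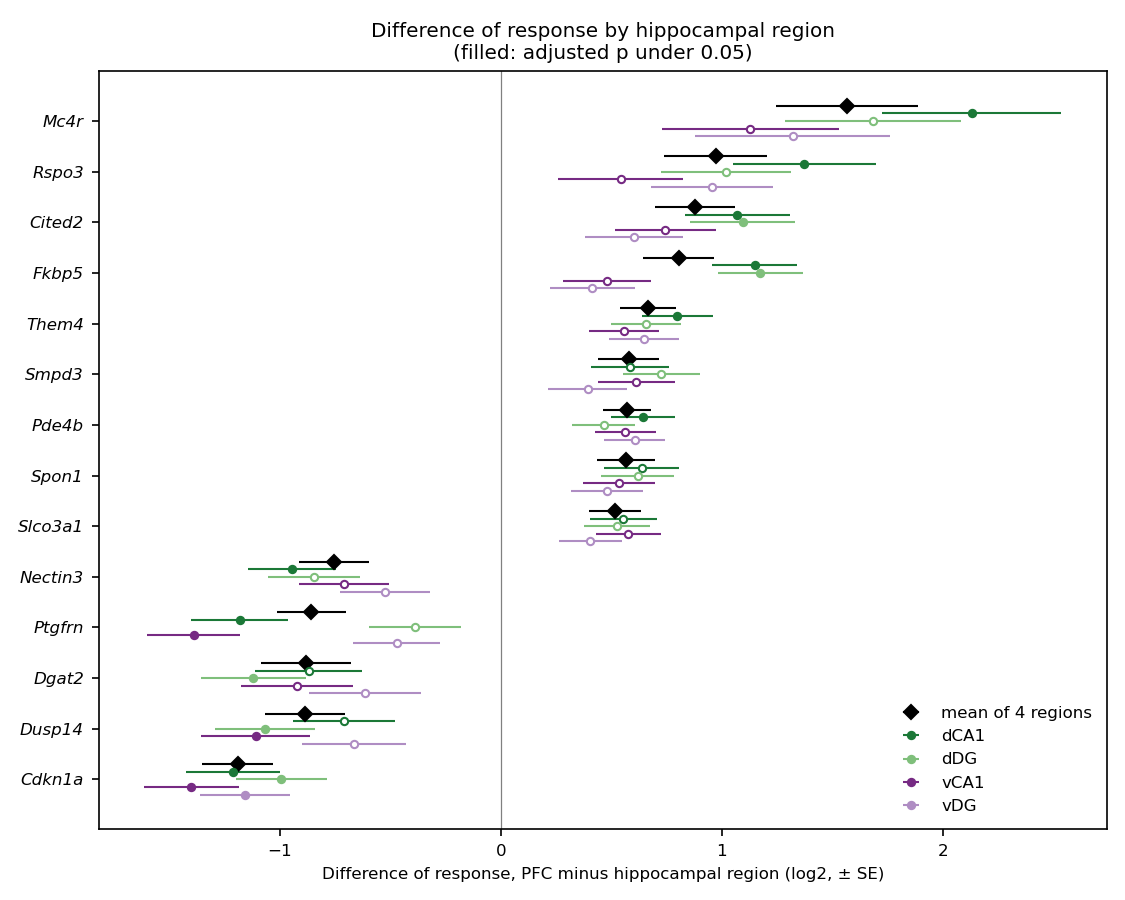
Difference of response (log2, PFC minus hippocampus, ± SE) for the 14 genes, against the mean of the 4 hippocampal regions (black diamonds) and against each region (circles). Filled symbols have an adjusted p under 0.05; all 5 symbols of a gene lie on the same side of 0, and only Cdkn1a is filled throughout.

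Fkbp5 and Cdkn1a, both strongly raised by dexamethasone everywhere, differed in opposite senses. Fkbp5 (ENSMUSG00000024222, chromosome 17, 28399095 to 28517524, minus strand in the mm10 annotation) lay at 11.3 CPM (5.27 to 27.0) in PFC of vehicle animals and at 90.4 CPM (70.2 to 116) after dexamethasone. In hippocampus, as the mean of an animal's 4 libraries (n = 14 vehicle and 13 dexamethasone mice), it lay at 26.8 CPM (20.4 to 43.9) and 114 CPM (99.0 to 155). The arms did not overlap in any of the 5 regions, and the PFC medians were the lower ones in both arms. The log2 rise was 2.78 in PFC, 1.67 (dCA1), 1.65 (dDG), 2.36 (vCA1) and 2.40 (vDG) among the hippocampal labels, and the difference of response was 0.80 ± 0.16 (SE, adjusted p 0.00328). It passed against dCA1, at 1.15 (adjusted p 3.23e-04), and dDG, at 1.17 (adjusted p 1.18e-04), and the values against vCA1 and vDG were 0.48 and 0.41 (adjusted p 1 for both). Without dCA1 in the hippocampal mean the difference was 0.70 (adjusted p 0.0703), and the call was also lost without the animals of punching date 3 or 4 and with counts thinned to at most a common library total.

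Cdkn1a (ENSMUSG00000023067, chromosome 17, 29090979 to 29100722, plus strand), which encodes an inhibitor of cyclin-dependent kinases, rose less in PFC. Its PFC libraries lay at 78.0 CPM (56.9 to 129.8) with vehicle and 310.3 CPM (209.7 to 505) with dexamethasone. The hippocampal means per animal lay at 37.2 CPM (18.5 to 74.2) and 356 CPM (262 to 529). The arms were apart in every region. The PFC median stood above the hippocampal one with vehicle, and after dexamethasone the ranges of PFC and hippocampus overlapped. The log2 rise was 1.96 in PFC against 2.99 to 3.36 in the hippocampal regions, a difference of -1.19 ± 0.16 (SE, adjusted p 2.01e-07). Within animals, the PFC minus hippocampus log2 level ran from 0.491 to 1.94 in the 14 vehicle mice and from -1.18 to 0.431 in the 13 dexamethasone mice, with no overlap. The call against the hippocampal mean held in all 22 alternatives run, and with limma voom without each of the 30 animals. Against single regions it held in 13 of 13 alternatives for dCA1 and vCA1 and 11 of 13 for dDG (adjusted p up to 0.0798), and in 12 of 13 for vDG, where it was lost without the animal term (adjusted p 0.137).

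Of 20 listed glucocorticoid response genes, 19 were tested for the difference of response, and Fkbp5 (higher in PFC) and Cdkn1a (lower in PFC) passed, 1 in each direction, where 0.132% of all genes passed. The list's median difference was -0.157, beside -0.00686 over all genes, and its members were split, with 9 of 19 above 0. An unadjusted p under 0.05 was reached by 6 of the 19, where 4.19% of all genes reached it. All 19 rose in hippocampus (6.68% of genes tested there rose), and 13 of the 15 tested in PFC rose (3.86% of genes there). The members of this list are known responders, so the direction of these changes is no independent finding. The kinase gene Sgk1 rose by 0.99 in PFC and the leucine zipper gene Tsc22d3 by 1.14, with differences of 0.15 (95% interval -0.17 to 0.47) and -0.16 (-0.42 to 0.10). Ddit4, an inhibitor of mTOR signalling, had a difference of 0.46 that missed the threshold (adjusted p 0.375), as did Mertk, a phagocytosis receptor, at -0.41 (adjusted p 0.503), and the metallothionein gene Mt2 at -0.34 (adjusted p 0.609). The glucocorticoid receptor gene Nr3c1 fell by 0.90 in PFC, and its difference of -0.24 did not pass (adjusted p 1).

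RefSeq promoter windows (GRCm38.p6, 250 bases before to 50 after the start) were at hand for 8 of the 14 genes, 12 windows in all. They are shown for Fkbp5 and Cited2, both with a larger rise in PFC, for Cdkn1a, with a smaller one, and for Pde4b, which fell in hippocampus. Of the 2 Cdkn1a windows, neither of which holds a motif searched, the one with the higher coordinates is shown, and likewise of the 2 Pde4b windows with a motif, a choice made with the matches known. Motifs searched on both strands are in capitals, and AGAACA in the Pde4b window is TGTTCT read on the other strand.
Fkbp5, chr17:28486100-28486399, minus strand: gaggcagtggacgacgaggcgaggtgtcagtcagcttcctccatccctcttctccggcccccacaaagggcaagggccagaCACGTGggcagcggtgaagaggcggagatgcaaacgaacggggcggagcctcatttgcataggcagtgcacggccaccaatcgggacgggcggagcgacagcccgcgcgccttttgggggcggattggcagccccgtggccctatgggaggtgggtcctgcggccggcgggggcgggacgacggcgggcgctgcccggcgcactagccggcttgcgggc
Cited2, chr10:17722978-17723277, plus strand: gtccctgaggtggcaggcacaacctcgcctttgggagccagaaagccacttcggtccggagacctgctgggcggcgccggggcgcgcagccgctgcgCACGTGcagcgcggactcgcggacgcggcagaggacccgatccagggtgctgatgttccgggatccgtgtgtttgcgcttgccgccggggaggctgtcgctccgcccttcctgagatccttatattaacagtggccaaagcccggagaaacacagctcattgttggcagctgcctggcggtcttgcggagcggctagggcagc
Cdkn1a, chr17:29093519-29093818, plus strand: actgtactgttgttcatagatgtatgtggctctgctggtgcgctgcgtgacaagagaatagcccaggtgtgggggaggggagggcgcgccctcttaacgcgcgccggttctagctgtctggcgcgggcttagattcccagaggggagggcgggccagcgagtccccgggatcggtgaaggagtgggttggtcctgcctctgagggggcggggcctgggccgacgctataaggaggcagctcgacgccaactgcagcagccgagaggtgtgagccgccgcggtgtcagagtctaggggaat
Pde4b, chr4:102589593-102589892, plus strand: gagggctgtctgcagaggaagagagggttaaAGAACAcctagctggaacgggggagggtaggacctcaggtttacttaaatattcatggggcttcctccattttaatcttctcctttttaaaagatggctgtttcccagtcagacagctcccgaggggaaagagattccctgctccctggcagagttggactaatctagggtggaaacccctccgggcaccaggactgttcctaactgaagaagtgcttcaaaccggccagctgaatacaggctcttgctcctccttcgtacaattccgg
The full glucocorticoid response element, a pair of TGTTCT cores facing each other across a spacer, was in none of the 12 windows and in 0.00913% of 32851 promoters. Its core TGTTCT was in 2 of 12, which are 2 of the 4 Pde4b windows, and in 19.0% of all promoters. The E-box CACGTG was in 2 of 12 windows, those of Fkbp5 and Cited2, and in 7.15% of all. The motifs TGATGCAA (0.895% of promoters) and TGACGTCA (1.79%) were in none of the 12. These matches describe the letters of the windows only.

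Cited2 and Mc4r had higher responses in PFC than in hippocampus. Cited2 (ENSMUSG00000039910, chromosome 10, 17723228 to 17725673, plus strand) encodes a transcriptional cofactor that binds the CBP family of coactivators. Its PFC levels lay at 22.8 CPM (11.6 to 42.1) with vehicle and 58.0 CPM (40.5 to 77.0) with dexamethasone. Hippocampal means lay at 27.7 CPM (15.7 to 42.9) and 38.4 CPM (29.9 to 45.9). The vehicle arms of PFC and hippocampus had like ranges, and in PFC only the highest vehicle library reached into the dexamethasone range. Cited2 rose by 1.29 in PFC (adjusted p 3.89e-10 in the PFC fit) and by 0.44 ± 0.10 (SE, adjusted p 0.0021) in the hippocampal sums. The difference of response was 0.88 ± 0.18 (SE, adjusted p 0.00454), with the region changes 0.19 (dCA1), 0.15 (dDG), 0.49 (vCA1) and 0.61 (vDG) among the hippocampal labels. It passed against dCA1 and dDG, at 1.07 (adjusted p 0.0188) and 1.09 (adjusted p 0.023), the latter in 12 of 13 alternatives. Without dCA1 the difference was 0.83 (adjusted p 0.0703), and leaving out date 1, 3 or 4 also ended the call, at 0.0772, 0.0819 and 0.0893 as adjusted p.

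Mc4r (ENSMUSG00000047259, chromosome 18, 66857715 to 66860472, minus strand) encodes a melanocortin receptor coupled to G proteins. It was sparsely counted. PFC libraries lay at 4.78 CPM (1.04 to 10.6) with vehicle and 18.3 CPM (2.05 to 27.7) with dexamethasone, and hippocampal means lay at 6.87 CPM (4.48 to 14.7) and 12.6 CPM (5.78 to 17.2). The ranges of the arms overlapped in every region, though the PFC median of the dexamethasone arm lay above the highest PFC library of the vehicle arm. The log2 change was 2.00 in PFC, -0.09 (dCA1), 0.45 (dDG), 0.91 (vCA1) and 0.77 (vDG) among the hippocampal labels. The difference of response, 1.57 ± 0.32 (SE, adjusted p 0.00454), was the largest of the 14 in size. Within animals, 12 of 13 dexamethasone mice lay above the vehicle median. The call was lost with thinned libraries (1.29, adjusted p 0.282), without dCA1 and without date 1, 3 or 5.

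Slco3a1, Spon1 and Smpd3 rose in PFC by like amounts and had no called change in hippocampus. In the hippocampal sums Slco3a1 changed by 0.14 ± 0.06 (SE, adjusted p 0.12), with region changes from 0.10 in dCA1 to 0.26 in vDG. Spon1 changed there by 0.06 ± 0.06 (SE, adjusted p 0.696) and Smpd3 by 0.04 ± 0.07 (SE, adjusted p 0.861). None of these genes passed against a single hippocampal region. Their smallest adjusted p were 0.146 (Slco3a1, dCA1), 0.118 (Spon1, dCA1) and 0.0598 (Smpd3, dDG). Slco3a1 (ENSMUSG00000025790, chromosome 7, 74275419 to 74554780, minus strand), an organic anion transporter gene, lay at 48.1 CPM (38.0 to 69.3) in PFC with vehicle and 75.8 CPM (59.0 to 108) with dexamethasone, and rose by 0.66 ± 0.10 (SE, adjusted p 2.61e-06). Its hippocampal means lay at 61.0 CPM (55.7 to 83.5) and 68.6 CPM (61.4 to 88.1). The PFC arms overlapped in part and the hippocampal arms over most of their range. The difference was 0.52 ± 0.12 (SE, adjusted p 0.0227). Spon1 (ENSMUSG00000038156, chromosome 7, 113765998 to 114043370, plus strand), which encodes the secreted matrix protein F-spondin, lay at 44.0 CPM (25.6 to 60.5) and 67.5 CPM (47.7 to 97.0) in PFC, a rise of 0.66 ± 0.11 (SE, adjusted p 3.22e-05). With 66.2 CPM (55.4 to 84.2) and 68.1 CPM (62.0 to 86.8) its hippocampal arms overlapped widely. The difference was 0.57 ± 0.13 (SE, adjusted p 0.0283).

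Smpd3 (ENSMUSG00000031906, chromosome 8, 106252548 to 106337988, minus strand), the gene of a neutral sphingomyelinase, lay at 54.3 CPM (39.2 to 70.9) in PFC with vehicle and 79.3 CPM (67.8 to 117) after dexamethasone, a rise of 0.63 ± 0.09 (SE, adjusted p 1.55e-06). The hippocampal means were 72.1 CPM (52.5 to 80.4) and 67.3 CPM (54.3 to 92.5). Only the upper edge of the vehicle range met the dexamethasone range in PFC, while the hippocampal ranges largely coincided. The difference was 0.58 ± 0.14 (SE, adjusted p 0.0447), close to the threshold. Within punching dates 1, 3 and 4 the per-animal difference between arms was 0.564, 0.814 and 0.703, and within date 5, with 2 vehicle and 3 dexamethasone mice, it was -0.170. Of the exon bases of Smpd3, 4.8% overlap Prmt7 on the other strand, and the strand setting of the counting is not given in the sources used here. The call held in 14 of 22 alternatives for Slco3a1, 16 of 23 for Spon1 and 14 of 23 for Smpd3. With limma voom and each of the 30 animals left out in turn it held 17, 28 and 14 times.

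Pde4b and Them4 fell in hippocampus and had no called change in PFC. Pde4b (ENSMUSG00000028525, chromosome 4, 102087543 to 102607259, plus strand) encodes a phosphodiesterase that breaks down cyclic AMP. In hippocampus its mean per animal went from 117 CPM (108 to 141) to 83.8 CPM (70.2 to 112), a fall by 0.50 ± 0.06 (SE, adjusted p 1.37e-07). PFC libraries lay at 164 CPM (111 to 200.1) and 164 CPM (123 to 222), with a change of 0.10 ± 0.09 (SE, adjusted p 0.723). The PFC arms covered nearly the same range, and the hippocampal arms touched only at their edges. All 4 hippocampal regions had lower levels after dexamethasone, with log2 changes from -0.55 in dCA1 to -0.35 in dDG. The difference of response was 0.57 ± 0.11 (SE, adjusted p 0.00192), and the PFC minus hippocampus level of all 13 dexamethasone mice lay above the vehicle median.

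Them4 (ENSMUSG00000028145, chromosome 3, 94310089 to 94332540, plus strand), an acyl-CoA thioesterase gene, fell in hippocampus too, where its mean per animal went from 62.6 CPM (51.4 to 83.1) to 51.0 CPM (35.2 to 56.0), a fall by 0.37 ± 0.07 (SE, adjusted p 4.08e-04). In PFC it lay at 40.9 CPM (28.5 to 49.7) and 49.6 CPM (34.8 to 66.3), and the change of 0.29 ± 0.10 (SE, adjusted p 0.0628) missed the threshold. Both sets of arms overlapped in part, PFC being below hippocampus in the vehicle arm and level with it in the dexamethasone arm. The difference was 0.66 ± 0.13 (SE, adjusted p 0.00192). For Them4 it passed in all 23 alternatives run, and Pde4b passed in 22 of 23, the exception being without date 3 (adjusted p 0.0665). Against single regions, both passed against dCA1 alone, at 0.64 (adjusted p 0.0197) for Pde4b and 0.80 (adjusted p 0.00483) for Them4.

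Dusp14 and Rspo3 changed in opposite directions, each called in both regions' own fits. Dusp14 (ENSMUSG00000018648, chromosome 11, 84048041 to 84069261, minus strand), a dual-specificity phosphatase gene of the MAP kinase pathways, went from 111 CPM (67.8 to 152) to 84.4 CPM (61.5 to 109) in PFC, a fall by 0.41 ± 0.10 (SE, adjusted p 0.00448). Its hippocampal mean went from 54.2 CPM (37.1 to 77.6) to 77.1 CPM (46.6 to 103), a rise by 0.48 ± 0.12 (SE, adjusted p 0.00434). The arms overlapped in every region, and the direction in the medians was down in PFC and up in all 4 hippocampal regions. PFC minus hippocampus, the response differed by -0.89 ± 0.18 (SE, adjusted p 0.00454). It passed against dDG (-1.07, adjusted p 0.0182) and vCA1 (-1.11, adjusted p 0.0493), and stood at -0.71 against dCA1 and -0.67 against vDG. The call against vCA1 held in 7 of 13 alternatives, with an adjusted p up to 0.223. The call against the mean ended without date 3 (adjusted p 0.0853) or date 5 (adjusted p 0.11). Dusp14 was 1 of 19 tested genes of the activity-regulated list, and the other 18 did not pass, where 0.132% of all genes passed.

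Rspo3 (ENSMUSG00000019880, chromosome 10, 29453109 to 29535867, minus strand), which encodes a secreted enhancer of Wnt signalling, is a low-count gene. PFC libraries lay at 10.7 CPM (6.59 to 17.9) and 16.5 CPM (8.20 to 22.7), a rise by 0.55 ± 0.16 (SE, adjusted p 0.0194), and hippocampal means at 17.4 CPM (15.2 to 24.5) and 14.6 CPM (9.79 to 23.0), a fall by 0.35 ± 0.10 (SE, adjusted p 0.017). All arms overlapped. The log2 changes were -0.86 (dCA1), -0.50 (dDG), 0.02 (vCA1) and -0.35 (vDG) among the hippocampal labels, and the difference of 0.97 ± 0.23 (SE, adjusted p 0.0447) passed against dCA1 alone (1.37, adjusted p 0.037). The call against dCA1 held in 9 of 13 alternatives, being lost with thinned counts, both limma voom fits and limma-trend (adjusted p up to 0.34). With limma voom the adjusted p was 0.0535 on all animals and under the threshold in 9 of the 30 fits that left out 1 animal. The call against the mean held in 14 of 22 alternatives. It was lost with thinned counts (adjusted p 0.654), without dCA1 (0.217) or dDG (0.0849) in the hippocampal mean, and without date 1, 3, 4 or 5 (0.0772, 0.192, 0.563 and 0.186).

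Ptgfrn, Dgat2 and Nectin3 had the lower response in PFC. Ptgfrn (ENSMUSG00000027864, chromosome 3, 101040232 to 101110278, minus strand), which encodes a membrane protein of the immunoglobulin superfamily that binds tetraspanins, rose in hippocampus from 21.1 CPM (10.5 to 26.1) to 43.8 CPM (36.6 to 54.1), by 1.07 ± 0.08 (SE, adjusted p 7.67e-12). PFC lay at 49.3 CPM (32.5 to 62.3) and 57.5 CPM (37.5 to 89.5), with a change of 0.26 ± 0.11 (SE, adjusted p 0.226). The hippocampal arms did not overlap and the PFC arms did, with the hippocampal median after dexamethasone below the vehicle median of PFC. The difference was -0.86 ± 0.16 (SE, adjusted p 0.0011), and it passed against the CA1 labels (-1.18 for dCA1, adjusted p 0.001, and -1.39 for vCA1, adjusted p 6.95e-06), with -0.39 and -0.47 against dDG and vDG. Without vCA1, the region with the largest rise (1.63), the difference was -0.66 (adjusted p 0.0572), and without date 1 it was -0.77 (adjusted p 0.0699). The part of the higher dentate markers in vCA1 after dexamethasone was not tested. Within animals the 14 vehicle and 13 dexamethasone values did not overlap.

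Dgat2 (ENSMUSG00000030747, chromosome 7, 99153658 to 99182719, minus strand), the gene of an enzyme that makes triglycerides, had its highest levels in dDG and dCA1 and rose in hippocampus from 85.7 CPM (53.9 to 122) to 145 CPM (56.1 to 183), by 0.72 ± 0.14 (SE, adjusted p 3.54e-04). In PFC it lay at 47.1 CPM (33.8 to 63.4) and 40.7 CPM (23.1 to 56.9), a change of -0.23 ± 0.11 (SE, adjusted p 0.318). The arms overlapped in hippocampus and more fully in PFC. The difference was -0.88 ± 0.20 (SE, adjusted p 0.0261), and against single regions it passed for dDG alone, at -1.12 (adjusted p 0.0182), and in 12 of 14 alternatives. Against the mean it was not called without the animal term (-0.86, adjusted p 0.0972), nor with limma voom and a random animal block (-0.85, adjusted p 0.176), without dCA1, or with any single punching date left out.

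Nectin3 (ENSMUSG00000022656, chromosome 16, 46387706 to 46498525, minus strand), which encodes an adhesion protein of cell junctions and synapses, fell in PFC with no called change in hippocampus. PFC libraries went from 108 CPM (64.4 to 135) to 62.5 CPM (38.9 to 81.8), a fall by 0.76 ± 0.11 (SE, adjusted p 2.42e-06). The hippocampal means were 59.6 CPM (43.0 to 85.5) and 59.9 CPM (49.6 to 73.2), a change of 0.04 ± 0.08 (SE, adjusted p 0.854). The PFC arms overlapped in part, and the hippocampal dexamethasone values lay inside the vehicle range. PFC and hippocampus differed in response by -0.76 ± 0.16 (SE, adjusted p 0.00518), which passed against dCA1 (-0.95, adjusted p 0.00972). Without dCA1 it was -0.68 (adjusted p 0.0703), and without date 1, 3 or 4 the adjusted p was 0.0772, 0.29 and 0.194.

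**Figure D3:**
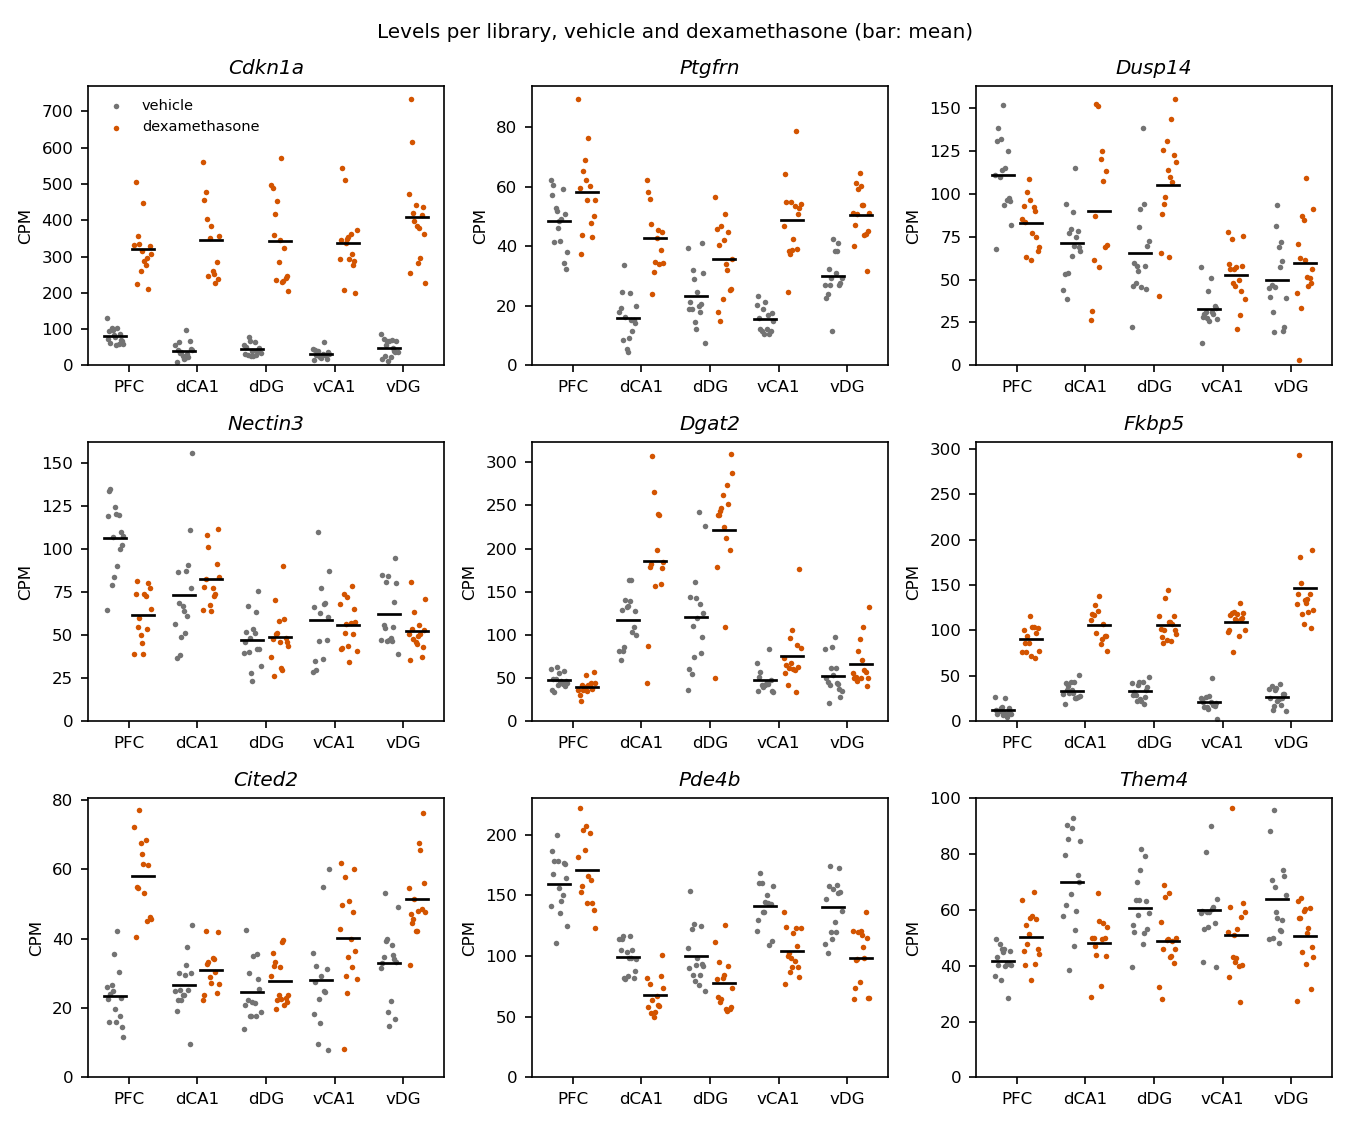
CPM of 9 of the 14 genes in every library (points) of PFC, dCA1, dDG, vCA1 and vDG, vehicle in grey and dexamethasone in orange, with the group mean as a bar. Cdkn1a and Fkbp5 separate the arms in all 5 regions, Nectin3 shifts down in PFC, and Pde4b shifts down in the 4 hippocampal regions.

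Vehicle levels were read beside the responses. In vehicle libraries 3381 of 9881 genes differed between PFC and the hippocampal mean (34.2%, 1689 higher and 1692 lower in PFC), and 12 of the 13 tested among the 14 genes passed. Cited2 did not (adjusted p 0.221) and Mc4r was not tested. The level differences came from a separate fit for each arm. The level difference after dexamethasone minus that after vehicle is close to the difference of response. Both use the same libraries, so the values are only set side by side. Cdkn1a stood at 1.06 ± 0.11 (log2 PFC minus hippocampus, ± SE) with vehicle and -0.13 ± 0.11 with dexamethasone. Dusp14 went from 1.08 ± 0.10 to 0.19 ± 0.14, Nectin3 from 0.87 ± 0.12 to 0.11 ± 0.09, and Ptgfrn from 1.25 ± 0.11 to 0.40 ± 0.10. For these 4 genes the PFC was the higher region with vehicle and the regions were closer after dexamethasone.

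With PFC the lower region in vehicle, the regions were also closer after dexamethasone for Fkbp5, from -1.15 ± 0.14 to -0.34 ± 0.08, Them4, from -0.60 ± 0.08 to 0.07 ± 0.10, and Spon1, from -0.61 ± 0.10 to -0.04 ± 0.08. Slco3a1, Smpd3 and Rspo3 went from -0.35 ± 0.09, -0.34 ± 0.10 and -0.70 ± 0.17 to 0.17 ± 0.08, 0.24 ± 0.10 and 0.28 ± 0.16, with adjusted p of 0.0963, 0.0573 and 0.191 for the level difference after dexamethasone. The regions were further apart after dexamethasone for Pde4b (0.43 ± 0.07 to 1.01 ± 0.08), Dgat2 (-0.69 ± 0.13 to -1.57 ± 0.15) and Cited2 (-0.24 ± 0.15 to 0.64 ± 0.10).

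**Figure D4:**
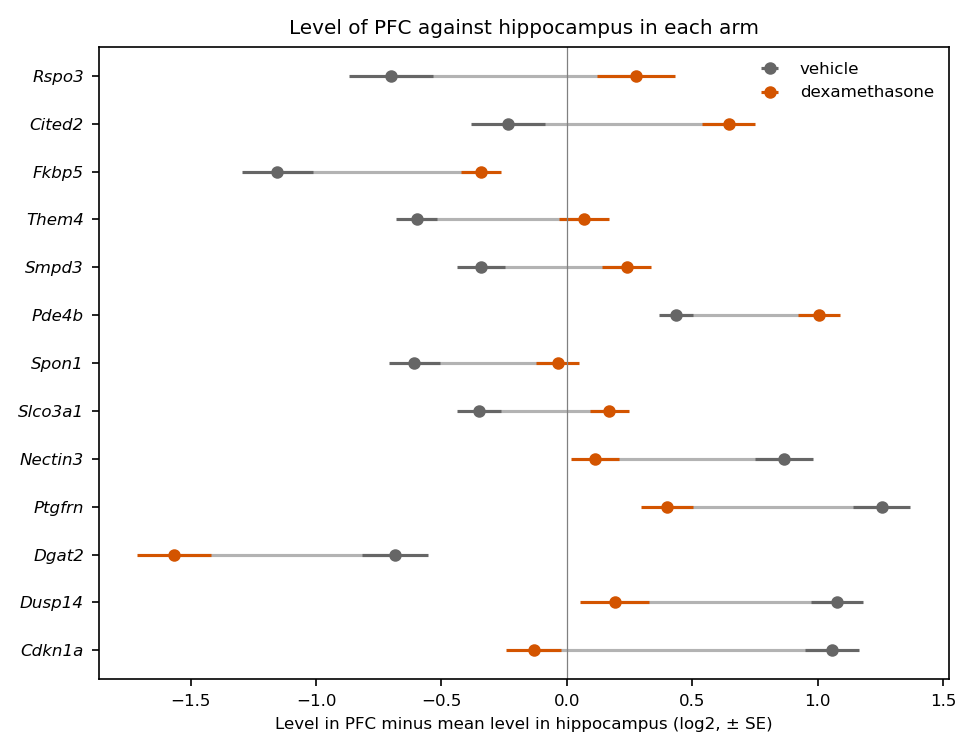
Level in PFC minus mean level in hippocampus (log2, ± SE) with vehicle (grey) and with dexamethasone (orange) for the 13 genes tested in both arms. The points come from a separate fit for each arm, so their distance is close to the difference of response of the joint fit. Cdkn1a moves from 1.06 to -0.13 and Dgat2 from -0.69 to -1.57.

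The PFC minus hippocampus level of single animals restates the contrast by which the 14 genes were chosen and is given as a description. In the 27 animals with all 5 libraries, the arms did not overlap in the PFC minus hippocampus level for Cdkn1a and Ptgfrn. For the other 12 genes they overlapped, and 12 or 13 of the 13 dexamethasone mice lay beyond the vehicle median in the direction of the difference. Only 4 of 13 dexamethasone mice lay beyond all vehicle mice for Cited2 and for Smpd3. On punching dates 1, 3, 4 and 5, which held at least 2 complete animals of each arm, the direction was the same on all 4 dates for 13 of the 14 genes and on 3 for Smpd3.

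**Figure D5:**
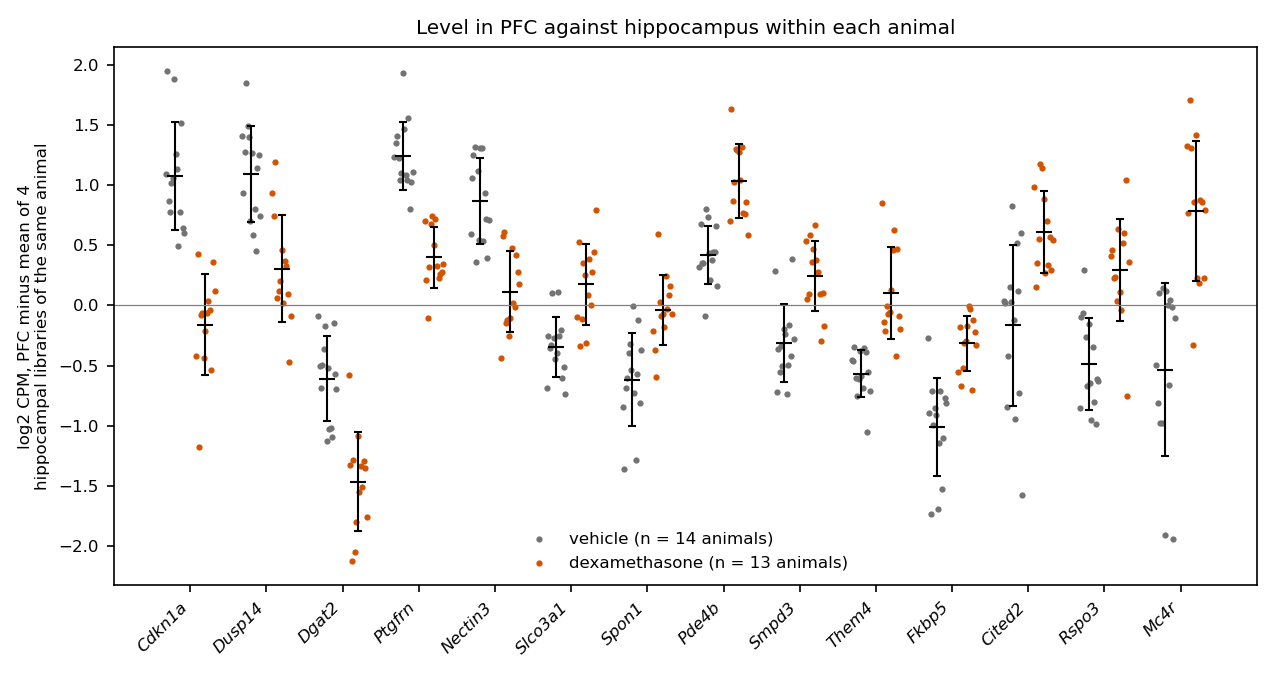
Log2 CPM in PFC minus the mean of the same animal's 4 hippocampal libraries, for 14 vehicle (grey) and 13 dexamethasone (orange) mice; bars are mean ± SD. Genes are ordered by difference of response, from Cdkn1a to Mc4r, and the arms are fully apart for Cdkn1a and Ptgfrn.

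Other genes passed against single hippocampal regions and not against the hippocampal mean. Against dCA1 these were Sox4 at 0.74 (adjusted p 0.0188), Dnah9, an axonemal dynein gene, at 1.59 (adjusted p 0.037), Tead1, a transcription factor of the Hippo pathway, at 0.81 (adjusted p 0.0197), Kcnt1, a sodium-activated potassium channel gene, at -1.71 (adjusted p 0.0188), and Socs2, an inhibitor of cytokine signalling, at -0.94 (adjusted p 0.0386). These calls held in 14 of 14 alternatives for Sox4, 9 of 13 for Dnah9, 13 of 14 for Tead1, 12 of 13 for Kcnt1 and 9 of 13 for Socs2, whose call the replicate block ended (adjusted p 0.104). Kcnt1 changed by 0.52 in PFC and 2.26 in dCA1. Against dDG they were Sox4 at 0.72 (adjusted p 0.023), the planar polarity gene Vangl1 at 1.10 (adjusted p 0.0237) and Ppif, the gene of mitochondrial cyclophilin, at -0.82 (adjusted p 0.023). The calls against dDG held in 10 of 14, 9 of 13 and 10 of 13 alternatives. Against vCA1 it was Dio2, the deiodinase that activates thyroid hormone, at -0.89 (adjusted p 0.0493), a call that held in only 5 of 14 alternatives. For Dio2 against vCA1 the adjusted p was 0.0735 with the replicate block, and in the libraries of the authors' tables the difference was -0.59 (adjusted p 0.5). Of these, Sox4 (0.52, adjusted p 0.0504), Dio2 (-0.63, adjusted p 0.0535), Vangl1 (0.79, adjusted p 0.0535) and Dnah9 (1.32, adjusted p 0.0535) lay just outside the threshold against the hippocampal mean, and Rspo3 and Smpd3 (adjusted p 0.0447 for both) just inside it. With the replicate block Sox4, Dio2 and Dnah9 passed against the mean (adjusted p 0.0104, 0.045 and 0.0272). Sox4 rose by 0.97 in PFC, and 54.6% of its exon bases overlap Gm26735 on the other strand, which had 8 counts over all libraries.

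No member of the other gene lists had a called difference of response against the hippocampal mean, and Kcnt1 of the potassium channel list passed against dCA1 alone. These were corticosteroid receptors and chaperones (14 tested, median difference 0.0364), serine and folate genes (19, -0.0352), circadian clock genes (18, -0.00168), interneuron and neuropeptide genes (19, 0.0375), potassium channel genes (38, 0.0218), glutamate and GABA receptor genes (35, 0.0139), TGF-beta and Smad genes (24, 0.0948), insulin, FoxO and fuel genes (24, 0.0799) and sterol and fatty acid synthesis genes (23, -0.0643), beside -0.00686 over all genes. At an unadjusted p under 0.05 they held from 0 to 3 genes each by the same edgeR test, where 443 of all 10585 genes (4.19%) did, and nothing particular to a list is read from these counts.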

How the data were processed

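RNA of micropunched regions was counted with unique molecular identifiers in 3' end libraries. The deposited values are raw counts per gene and library, made by the authors. Per the submitters' processing notes, build mm10, FastQC 0.11.4, cutadapt, UMI-tools 0.5.4, STAR 2.6.0a, featureCounts 1.6.4, DESeq2 1.30.1 and R 4.0.5 were used, and annotation and strand setting are not given in the sources used here. The authors' log2-type variance-stabilised tables, deposited per region, served only to show which libraries they hold, and 6 of the 146 are absent from them.

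Low-count genes were filtered by group with edgeR 4.0.16 in R 4.3.3, libraries were scaled by TMM, and a quasi-likelihood model with 30 animal terms, region and region by treatment (38 columns) was fitted to the 146 libraries. The tested contrast was the change in PFC minus the mean of the 4 hippocampal changes. Because each animal had 1 treatment, changes within single regions were taken from the same model without animal terms. Tests called PFC fit and hippocampal sums used PFC libraries alone and each animal's 4 hippocampal libraries summed (14 vehicle and 13 dexamethasone animals). P-values were Benjamini-Hochberg adjusted over all genes, with 0.05 as threshold. Permutation tests were 2-sided. Per-animal log2 CPM used a prior count of 2. Named genes were those past the threshold with a mean of at least 5 CPM in at least 1 group, up to 15 in each direction, and genes of the lists that passed. Same-numbered vehicle and dexamethasone libraries had the same plate in 71 of 71 pairs and the same punching date in 68 of 71, per the labels, so a replicate block pairs them by batch. Their deviations correlated over 0.1 in 9 of 14 PFC pairs (0.0339 to 0.306) and in 11 of 12 pairs of per-animal differences (-0.00537 to 0.355). Members and lists were chosen with earlier results of these data known. On simulated counts over 10481 genes, the test recovered 25 of 50 genes given a log2 difference of 0.585 in this contrast, 45 of 50 at 1, 43 of 50 at -1 and 50 of 50 at 1.58, and called 5 of 10282 unchanged genes. The simulated spread was assumed, equal in all regions, and without batch or RNA integrity effects. Changed genes had a mean of at least 5 counts. These numbers check the code and do not give the power or error rate in these data. Gene coordinates are those deposited with the counts, on mm10. Of 27645 genes shared with a GENCODE annotation of mm10, 78.4% had the same start and end there. Alternatives were DESeq2 1.42.0, limma 3.58.1, other scalings and filters, thinned counts, integrity or plate terms, single regions, dates or animals left out, and a replicate block. Limma voom with fixed animal terms and its fits without single animals were added after seeing the data, as was the restriction to libraries of the authors' tables.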

Additional observations from a re-analysis of the deposited data

Results flagged for a closer look

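Each gene below had a response that differed between brain regions by a test of the difference itself, on the log2 scale, PFC minus hippocampus. Against the hippocampal mean the values were 1.57 for Mc4r, 0.97 for Rspo3, 0.88 for Cited2, 0.80 for Fkbp5, 0.66 for Them4, 0.58 for Smpd3, 0.57 for Pde4b, 0.57 for Spon1 and 0.52 for Slco3a1. On the lower side they were -1.19 for Cdkn1a, -0.89 for Dusp14, -0.88 for Dgat2, -0.86 for Ptgfrn and -0.76 for Nectin3.

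Against dCA1 alone the additional genes were Dnah9 (1.59), Tead1 (0.81), Sox4 (0.74), Socs2 (-0.94) and Kcnt1 (-1.71). Against dDG they were Vangl1 (1.10), Sox4 (0.72) and Ppif (-0.82), and against vCA1 it was Dio2 (-0.89). The labels dCA1 and dDG were not separated by CA1 or dentate markers. Summed dentate markers overlapped between vCA1 and vDG, and dentate markers were higher in vCA1 after dexamethasone.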

How the results depend on the processing

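The 14 genes with a different response against the hippocampal mean became 25 with DESeq2, 26 with limma-trend on per-animal differences, 8 with at least 10 counts required in every library and 9 with thinned counts. They were 6 without dCA1, 32 without vDG, 6, 3, 6 and 8 without punching dates 1, 3, 4 and 5, 24 at an adjusted p of 0.1 and 9 at 0.01. Limma voom with fixed animal terms gave 14 on all animals and 10 to 18 with single animals left out. Against dCA1 the 14 became 5 with the count minimum and 23 with plate and date terms. Against dDG the 8 became 15 with DESeq2, 5 with the count minimum, thinned counts, limma voom with a random block or limma-trend, 3 with no animal block, 17 with plate and date terms and 16 in the libraries of the authors' tables. Against vCA1 the 4 became 7 with no filter or DESeq2, 2 with RLE or upper-quartile scaling, thinned counts or limma voom with a fixed block, 0 with the count minimum and 12 with limma-trend. Against vDG the 1 became 3 with DESeq2 or plate and date terms, 0 with the count minimum or no animal block, and 2 with limma-trend or the authors' libraries. The count minimum also gave 345 genes in PFC and 1745 for vehicle levels.

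With the replicate number as block within region, the counts were 25 against the mean, 23 against dCA1, 23 against dDG, 2 against vDG, 738 in PFC and 1571 in the hippocampal sums. Among genes named in the report, the block ended the calls of Socs2 against dCA1 and Dio2 against vCA1, brought Sox4, Dio2 and Dnah9 past the threshold against the mean, and ended no other call of a named gene in the response contrasts.

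Signs turned only for genes that had not passed: Sgk1 (-0.0528) and Nfkbia (-0.0620) without date 5, and Per1 under the replicate block (-0.000759), thinned counts (-0.0379), without dDG (-0.0200), without date 2 (-0.0253) or 3 (-0.0822) and across left-out animals (-0.0435 to 0.0551). The cause of these changes was not tested.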
